A study of Mus musculus with 6 samples.

Results

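The genes of the DNA replication machinery were followed in LSKs, the lineage-negative, Sca-1-positive and c-Kit-positive bone marrow cells that include hematopoietic stem and progenitor cells. The members were 47 protein-coding genes, selected by gene symbol from the 55487 genes of the deposited expression table, and all 47 had enough counts to be tested. In irradiated Tespa1-/- LSKs, 18 of them were higher than in wild-type LSKs and 9 lower at an adjusted p under 0.05, and 20 did not pass the test. Over all 15332 genes tested, 31.5% were higher and 31.8% were lower. The largest fall was that of Pole, the catalytic subunit of polymerase epsilon, and the largest rises that passed were those of the licensing inhibitor Gmnn and the dUTPase gene Dut. Once a trend with gene length was removed, Gmnn and Dut were still higher, with log2 fold changes of 0.26 and 0.37. The largest rises that passed were then those of Tyms (0.54) and Cdc45 (0.51). In polymerases delta and epsilon, 1 subunit fell while another rose. The rise in polymerase epsilon, that of Pole2, did not pass once a trend with gene length was removed. In both pairs, the falling subunit was the one with more bases of exon.

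The study asked how loss of Tespa1, a gene first described in thymocytes, changes hematopoietic stem cells under stress. RNA sequencing was carried out on LSKs of 3 Tespa1+/+ and 3 Tespa1-/- samples. Mice of both groups received 5.0 Gy of total body irradiation and their cells were taken at day 13, so the controls were irradiated too and no unirradiated sample enters the comparison. The methods describe male mice of 8 to 10 weeks, and the labels call the Tespa1+/+ mice littermates. The Tespa1-/- mice carried the B6.129S-Tespa1tm1Smoc allele backcrossed to C57BL/6, a deletion present in every tissue, so LSKs and the cells around them lacked the gene alike. Whether a sample was 1 mouse or a pool was not stated, and the p-values then measure the spread between these samples, which may be technical.

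Before a cell copies its genome, the origin recognition complex and the factors Cdc6 and Cdt1 load rings of MCM2-7 onto DNA in a step called licensing, which geminin blocks once replication has begun. In S phase Cdc45 and the GINS complex turn the loaded ring into the CMG helicase, polymerase alpha-primase lays down primers, and polymerases epsilon and delta extend the strands with the help of the PCNA clamp. Most of these genes are transcribed under E2F factors at the passage from G1 to S. Stem cells at rest keep many of them low, and cycling progenitors keep them high.

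The promoters of the members were examined first, since members could share sequence there. RefSeq promoter sequences, on build GRCm38.p6 and running from 250 bases before to 50 bases after each start, were matched for 39 of the 47 members. The members not matched were Prim2, Gins2, Gins1, Rfc2, Pole, Gmnn, Gins4 and Mcm4. Some genes have more than 1 start, so the 39 genes had 47 promoters, and a gene was counted when any of its promoters held a motif. The E2F motif was searched as TTTCCCGC, TTTCGCGC, TTTGCCGC and TTTGGCGC on both strands. It was found in 14 of 39 members, or 35.9%, against 2.6% of the 27025 genes with a promoter of the same length. The 14 members were Cdc6, Cdt1, Gins3, Lig1, Mcm3, Mcm5, Mcm6, Mcm7, Orc1, Orc3, Pola1, Pold1, Pole2 and Rfc3. Stretches of 100 bases upstream of the start are shown for 3 ring subunits, for the ring loader Cdc6 and for the polymerase subunit Pola1, with the matches in capitals. In Mcm5 and in Mcm6, 2 matches on opposite strands overlap and form 1 run of capitals.
Mcm5, chr8:75109310-75109409, plus strand: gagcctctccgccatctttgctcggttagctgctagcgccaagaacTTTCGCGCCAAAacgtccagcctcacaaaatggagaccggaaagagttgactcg
Mcm6, chr1:128359762-128359861, minus strand: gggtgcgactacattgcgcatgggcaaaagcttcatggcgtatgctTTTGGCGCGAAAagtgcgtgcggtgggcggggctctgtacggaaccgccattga
Mcm7, chr5:138171995-138172094, minus strand: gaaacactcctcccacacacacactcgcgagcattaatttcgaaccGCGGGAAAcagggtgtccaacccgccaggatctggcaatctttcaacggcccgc
Cdc6, chr11:98907967-98908066, plus strand: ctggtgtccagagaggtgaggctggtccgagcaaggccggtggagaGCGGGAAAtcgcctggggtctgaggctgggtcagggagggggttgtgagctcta
Pola1, chrX:93632240-93632339, minus strand: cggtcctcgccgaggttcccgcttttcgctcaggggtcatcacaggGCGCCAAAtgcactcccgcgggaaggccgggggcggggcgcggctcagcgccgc

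Of the 14 members that held the E2F motif, 2 were higher and 4 lower in Tespa1-/- LSKs, with a median log2 fold change of 0.00. Of the 25 members in whose promoters these letters were not found, 12 were higher and 3 were lower, with a median of 0.20. Over all genes tested, 31.5% were higher and 31.8% lower. The calls and medians by motif take no account of gene length, with which fold changes moved (below), and the difference between the sets was not tested. The CCAAT box, searched as CCAAT on both strands, was found in 24 of 39 members (61.5%) and in 41.1% of all genes, and the E-box CACGTG was found in 8 of 39 members (20.5%) and in 8.09% of all genes. Members with a CCAAT box had a median log2 fold change of 0.02, and those without it 0.05. In 1 place in the promoters of the members, matches to different motifs overlapped. Of the 4 members that rose by more than 1.5-fold, Gmnn was not matched and Dut held none of the 3 motifs, while Rrm2 and Cdc45 held a CCAAT box, shown in capitals in the 100 bases before the start. A match is a description of the letters and not evidence of a bound factor.
Rrm2, chr12:24708154-24708253, plus strand: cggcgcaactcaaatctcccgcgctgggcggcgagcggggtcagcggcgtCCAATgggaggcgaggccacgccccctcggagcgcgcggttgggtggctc
Cdc45, chr16:18811973-18812072, minus strand: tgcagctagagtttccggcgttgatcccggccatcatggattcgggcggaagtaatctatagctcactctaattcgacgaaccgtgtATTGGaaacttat

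The libraries held between 12856630 and 30576981 counts. Levels are given as normalised read counts in CPM, that is, counts scaled to a common library size with TMM factors, and differences as log2 fold changes of Tespa1-/- over Tespa1+/+ with their standard error (SE). Tespa1 itself was at 34.4 ± 1.62 CPM in Tespa1+/+ and 14.6 ± 0.634 CPM in Tespa1-/- LSKs (SD, n = 3 each), lower in 3 of 3 libraries but still counted in each. The sort markers were present, with Kit (the c-Kit receptor) at 332.7 CPM in Tespa1+/+ and 169.6 CPM in Tespa1-/- LSKs and Ly6a (Sca-1) at 50.5 and 40.4 CPM. Of 8 T-lineage markers, 4 had enough counts to be tested, of which Thy1 was higher in Tespa1-/- LSKs and 3 were lower, with summed levels of 27.2 to 29.1 CPM in Tespa1+/+ and 23.5 to 25.1 CPM in Tespa1-/- libraries. Cd3e, the defining one, had no count in any Tespa1-/- library and at most 8 in a Tespa1+/+ library. Of 12 markers of the sort, of stem cells and of other LSKs, 11 were lower in Tespa1-/- LSKs and none was higher. Their summed levels were 1351 to 1384 CPM in Tespa1+/+ and 764.3 to 783.3 CPM in Tespa1-/- libraries. The list includes Cd34 and Flt3, whose products the study's gate for long-term stem cells excludes, and Cd48, excluded in another stem cell gate. Cd34 (513.9 and 300.7 CPM), Kit and Flt3 (225.8 and 112.1 CPM) were the largest terms, so the sum is not a level of stem cell markers alone. All 14 granulocyte markers were higher, with summed levels of 10626 to 11374 CPM against 17675 to 18526 CPM. Mpo was the largest term (7523.6 and 10501.3 CPM), so the sum hides larger rises, and the median log2 fold change of the list was 2.73. Ngp (0.252 and 72.0 CPM), Ltf (0.173 and 48.7 CPM) and Camp (0.196 and 20.7 CPM) were hardly counted in Tespa1+/+ libraries. Itgam, a myeloid marker outside this list, was at 30.3 and 20.7 CPM and did not pass. In bulk RNA, fewer cells of a type and less RNA per cell cannot be told apart, and the part of these shifts in the values of the replication genes was not tested.

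Fold changes in these data also moved with gene length. Across 10029 well-expressed genes, the rank correlation (Spearman) of log2 fold change with union exon length was -0.62, a value across genes that share the same libraries. Members are therefore given with a second log2 fold change, called length-corrected here, from a fit in which a smooth trend with exon length was removed. Over all genes, this fit called 24.9% higher and 30.1% lower. It called 19 members higher and 7 lower, of which 11 higher and 5 lower were shared with the uncorrected fit. The part of gene length in any single value was not tested.

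**Figure D1:**
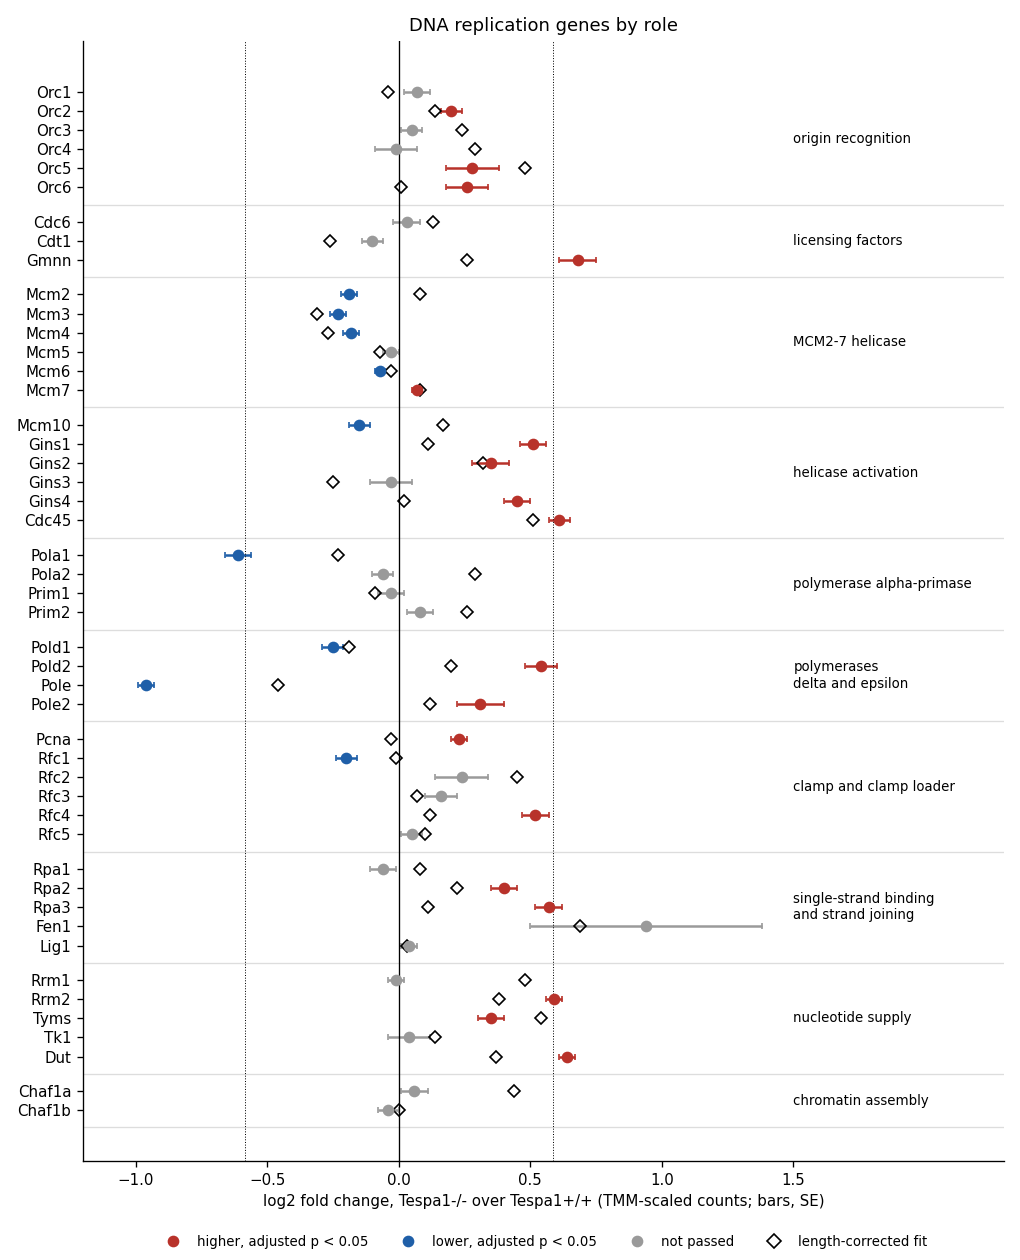
Log2 fold change of each of the 47 genes, Tespa1-/- over Tespa1+/+, with its SE (filled circles, coloured by the test at an adjusted p under 0.05), and the length-corrected log2 fold change of the same gene (open diamonds). Dotted lines mark a fold of 1.5 in either direction, which 4 genes passed upward (Gmnn, Cdc45, Rrm2 and Dut) and 2 downward (Pole and Pola1) with an adjusted p under 0.05, while Fen1 lies past the line with a wide SE.

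With a fold over 1.5 in addition, the members that passed were Gmnn, Cdc45, Rrm2 and Dut on the higher side and Pole and Pola1 on the lower side. The shares over all genes at this cutoff were 14.0% higher and 19.2% lower. These folds lay close to the cutoff, except that of Pole, and none of the 4 rises reached it with total counts, limma-trend or the length correction, nor did either fall with the length correction. The libraries of the groups did not overlap for 29 of 47 members, against 69.1% of all genes tested. The summed level of the members was 7404, 7540 and 7409 CPM in the Tespa1+/+ libraries and 7717, 7647 and 7703 CPM in the Tespa1-/- libraries. As a share of the raw counts, the members held between 0.766% and 0.779% in Tespa1+/+ and between 0.739% and 0.743% in Tespa1-/- libraries, so the order of the groups depended on the scaling. The median log2 fold change of the members was 0.06, and that of all genes was 0.00. Scaled by total counts alone, the median of all genes shifted by -0.10 and 13 members were higher and 15 lower. The share of higher genes among all calls was then 41.0%, against 49.8% with TMM factors and 45.2% with the length correction.

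**Figure D2:**
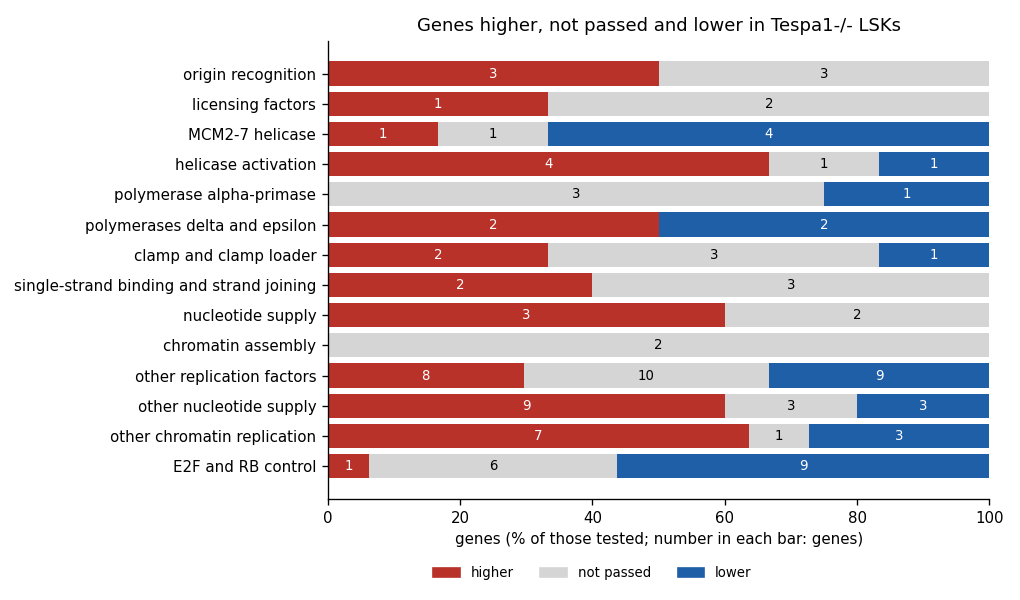
Share of genes higher (red), not passed (grey) and lower (blue) in LSKs of Tespa1-/- mice, with a threshold of 0.05 on the adjusted p, for the 10 roles of the members and for 4 further lists of the pathway, with the number of genes in each bar. The MCM2-7 ring held 4 lower genes of 6 and helicase activation held 4 higher genes of 6. Over all genes tested, 31.8% were lower and 31.5% higher. With the length correction, the ring held 2 lower and 1 higher, and helicase activation 3 higher and 1 lower.

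Origins are marked by the origin recognition complex, a ring-like ATPase of 6 subunits. Of its genes, Orc2, Orc5 and Orc6 rose and the other 3 did not pass. Orc2 rose from 77.2 ± 1.47 to 88.6 ± 2.47 CPM (SD, n = 3 each), a log2 difference of 0.20 ± 0.04 (SE; edgeR, adjusted p 0.00333), with all 3 Tespa1-/- libraries above all Tespa1+/+ libraries. It was at 0.14 with the length correction and passed, but not with total counts (0.10), limma-trend (0.09 and 0.10) or a correction on the length that count and FPKM imply (0.07). The same order of libraries held for Orc5 (log2 difference 0.28 ± 0.10, SE; edgeR, adjusted p 0.0456) and for Orc6 (log2 difference 0.26 ± 0.08, SE; edgeR, adjusted p 0.0298). Both calls were lost in several of the fits that left out 1 library. Orc5 did not pass without Tespa1+/+ replicate 2 (0.21) or 3 (0.30) or without Tespa1-/- replicate 1 (0.30) or 3 (0.21), and Orc6 passed without Tespa1-/- replicate 2 (0.36) but in none of the other 5 such fits, with values of 0.22 to 0.28. Orc1, the subunit that comes and goes with the cell cycle, was at 27.7 ± 0.658 and 29.0 ± 0.318 CPM (SD, n = 3 each; edgeR adjusted p 0.337). Orc3 and Orc4 had log2 fold changes of 0.05 and -0.01. With the length correction, Orc6 was at 0.01 and no longer passed, Orc1 was at -0.04, and Orc3 (0.24), Orc4 (0.29) and Orc5 (0.48) passed as higher. Exons of Orc2 share 29.8% of their length with Nif3l1 on the other strand, so its count is uncertain if counting ignored the strand.

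Licensing is driven by Cdc6 and Cdt1, which bring the MCM rings to the origin, and is blocked by geminin, the product of Gmnn, which binds Cdt1. Gmnn had 52.2, 49.1 and 46.7 CPM in Tespa1+/+ libraries and 81.3, 83.6 and 71.9 CPM in Tespa1-/- libraries. Every Tespa1-/- library was above every Tespa1+/+ library, and the log2 fold change was 0.68 (± 0.07, SE; edgeR, adjusted p 1.4e-04). The gene (ENSMUSG00000006715, chromosome 13, 24751845 to 24761923, minus strand) has 1465 bases of exon, and its length-corrected value was 0.26 and still passed. Cdt1 had 122.4, 130.6 and 130.9 CPM in Tespa1+/+ and 117.4, 124.5 and 116.5 CPM in Tespa1-/- libraries. These groups overlapped (log2 difference -0.10 ± 0.04, SE; edgeR, adjusted p 0.0872), whereas the length-corrected value of -0.26 passed as lower, as did the uncorrected value without Tespa1+/+ replicate 1 (-0.13). The ratio of Cdt1 to Gmnn, both in CPM, was 2.34, 2.66 and 2.80 in Tespa1+/+ libraries and 1.44, 1.49 and 1.62 in Tespa1-/- libraries. Cdc6 was at 73.7 ± 3.29 and 75.1 ± 3.86 CPM (SD, n = 3 each), within the spread of the libraries. It was at 0.13 with the length correction and did not pass, but passed as higher with the correction on the implied length (0.22).

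The MCM2-7 ring is the inactive helicase that licensing deposits on DNA, and it is built from 1 copy of each of 6 related ATPases. Of its 6 genes, 4 fell, by small amounts and with little spread. Mcm3 had 448.7, 470.7 and 466.0 CPM in Tespa1+/+ and 377.5, 403.5 and 397.2 CPM in Tespa1-/- libraries, which do not overlap (log2 difference -0.23 ± 0.03, SE; edgeR, adjusted p 8.2e-04). Mcm4 fell from 285.3 ± 4.95 to 252.5 ± 8.44 CPM (SD, n = 3 each), a log2 difference of -0.18 ± 0.03 (SE; edgeR, adjusted p 0.00299). The falls of Mcm3 and Mcm4 were as large with the length correction, at -0.31 and -0.27. Mcm2 fell from 428.5 ± 11 to 376.1 ± 3.04 CPM (SD, n = 3 each), a log2 difference of -0.19 ± 0.03 (SE; edgeR, adjusted p 8.1e-04), but its length-corrected value was 0.08 and did not pass. Mcm6 fell by 0.07 on the log2 scale (± 0.02, SE; edgeR, adjusted p 0.0217) and did not pass without any 1 of the 6 libraries (-0.07 to -0.06). Mcm5 was at 535.8 ± 12.6 and 523.6 ± 12.0 CPM (SD, n = 3 each) and did not pass. Mcm7 was the only subunit called higher, by 0.07 (± 0.02, SE; edgeR, adjusted p 0.0340), and its direction flipped to -0.03 when libraries were scaled by total counts. Mcm7 also did not pass without replicate 1 or 3 of either group (0.07 to 0.08). With the length correction, Mcm7 passed as higher (0.08), while Mcm5 (-0.07) and Mcm6 (-0.03) did not pass. With the correction on the implied length, Mcm5 passed as lower (-0.10) and Mcm6 kept its call. The summed level of the ring genes was 2815 to 2852 CPM in Tespa1+/+ and 2644 to 2671 CPM in Tespa1-/- libraries.

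Levels of different genes can be set side by side on the FPKM scale, which divides by a gene length. The length that count and FPKM imply was 4016 bases for Mcm4, 6704 for Mcm3 and 6781 for Mcm7. Their union exon lengths were 3589, 3752 and 4426 bases, so the order of genes in FPKM depends on the length used. In Tespa1+/+ LSKs, Mcm6 had the highest level of the 47 genes with 117.2 ± 1.30 FPKM, followed by Mcm5 with 101.4 ± 2.28 FPKM and Pcna with 88.3 ± 1.57 FPKM (SD, n = 3 each). Mcm4, Mcm3 and Mcm7 came next with 73.5 ± 1.37, 71.2 ± 1.70 and 70.9 ± 0.664 FPKM, and of these neighbours Mcm3 and Mcm7 overlapped, whereas each Mcm4 library was above each Mcm7 library. Mcm2 was the lowest of the ring genes with 49.5 ± 1.25 FPKM. At the other end, Orc4 and Orc5 were at 3.04 ± 0.0909 and 2.82 ± 0.277 FPKM, again within their spread. In Tespa1-/- LSKs, Dut (90.8 ± 1.89 FPKM) and Rrm2 (75.4 ± 1.81 FPKM) stood above Mcm7 (69.4 ± 0.612 FPKM), which they did not in Tespa1+/+ LSKs, where they were at 62.6 ± 1.27 and 53.6 ± 0.548 FPKM.

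Helicase activation needs Cdc45 and the 4 GINS subunits, which join the ring to form the CMG helicase, and Mcm10, which acts when the helicase starts to move. Cdc45 had 77.5, 80.9 and 76.4 CPM in Tespa1+/+ and 123.6, 121.6 and 114.4 CPM in Tespa1-/- libraries. It was higher in all 3 Tespa1-/- libraries, with a log2 difference of 0.61 ± 0.04 (SE; edgeR, adjusted p 2.4e-05), and of 0.51 with the length correction. The gene lies on chromosome 16, 18780447 to 18811987, minus strand (ENSMUSG00000000028). Gins1 rose from 47 ± 1.9 to 67.0 ± 2.21 CPM (SD, n = 3 each), a log2 difference of 0.51 ± 0.05 (SE; edgeR, adjusted p 1.0e-04). Gins4 rose from 46.6 ± 1.79 to 63.6 ± 1.33 CPM (SD, n = 3 each), a log2 difference of 0.45 ± 0.05 (SE; edgeR, adjusted p 1.5e-04). Both are short genes, and with the length correction neither passed, at 0.11 for Gins1 and 0.02 for Gins4. Gins2 rose by 0.35 (± 0.07, SE; edgeR, adjusted p 0.00400) and was at 0.32 with the length correction. Exons of Gins2 share 67.3% of their length with Gse1 on the other strand, and Gse1 fell from a range of 3244 to 7441 counts to 1227 to 1881 counts, so strand-blind counting would bear on this value. Gins3, the fourth subunit, was at 17.3 ± 1.11 and 17.0 ± 0.896 CPM (SD, n = 3 each) and did not pass, but was lower with the length correction (-0.25).

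The GINS genes thus parted within a complex that holds 1 copy of each. The ratio of Gins1 to Gins3, in CPM not corrected for length, was 2.72 ± 0.180 in Tespa1+/+ and 3.96 ± 0.237 in Tespa1-/- LSKs (SD, n = 3 each). With the length correction, Gins2 (0.32) alone was higher and Gins3 (-0.25) was lower, while Gins1 (0.11) and Gins4 (0.02) did not pass. Mcm10 fell by 0.15 on the log2 scale (± 0.04, SE; edgeR, adjusted p 0.0124), from 92.3 ± 2.91 to 83.4 ± 0.818 CPM (SD, n = 3 each). Its sign flipped with the length correction, where it passed as higher with 0.17, and it was the only member called in opposite directions by these fits.

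**Figure D3:**
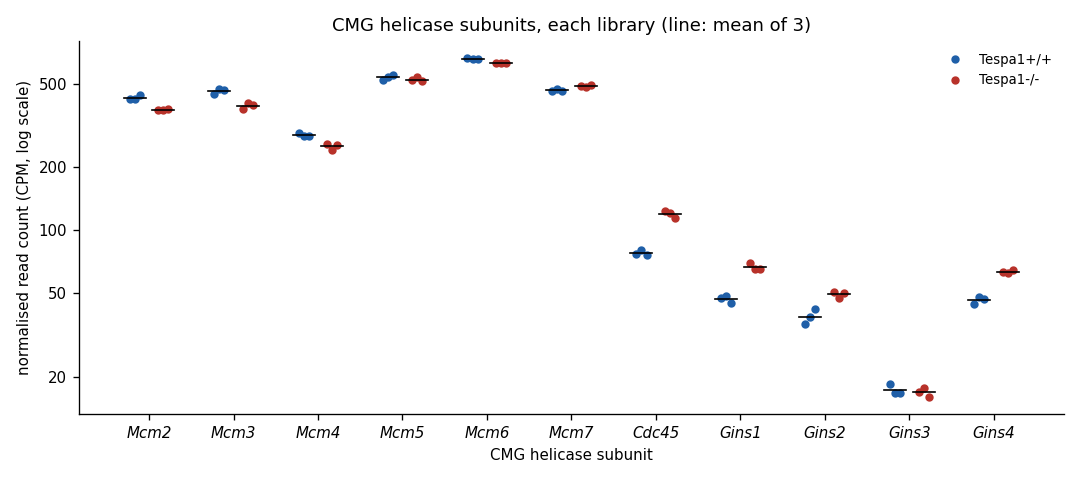
Normalised read count (CPM, log scale) of the 11 genes of the CMG helicase in each library, Tespa1+/+ in blue and Tespa1-/- in red, with the mean of 3 libraries as a line. Tespa1-/- libraries lie below Tespa1+/+ libraries for Mcm2, Mcm3, Mcm4 and Mcm6 and above them for Mcm7, Cdc45, Gins1, Gins2 and Gins4, and the groups overlap for Mcm5 and Gins3.

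Polymerase alpha-primase, which starts each new strand with an RNA-DNA primer, has the catalytic subunit Pola1, the accessory subunit Pola2 and the primase subunits Prim1 and Prim2. Pola1 had 182.9, 178.4 and 174.2 CPM in Tespa1+/+ and 119.5, 110.1 and 121.5 CPM in Tespa1-/- libraries. All Tespa1-/- libraries were lower, with a log2 difference of -0.61 ± 0.05 (SE; edgeR, adjusted p 2.8e-05), and the length-corrected value of -0.23 also passed. Without Tespa1-/- replicate 2, the library with the lowest level, it was -0.56 and within a fold of 1.5. Pola1 (ENSMUSG00000006678) spans chromosome X, 93304767 to 93632155, minus strand, and has 8813 bases of exon. Its partners did not pass. Pola2 was at 130.7 ± 3.00 and 125.6 ± 4.65 CPM (SD, n = 3 each), and Prim1 at 79.3 ± 4.47 and 77.6 ± 1.84 CPM. Prim2 had 56.0 ± 1.52 and 59.1 ± 2.33 CPM. With the length correction, Pola2 (0.29) and Prim2 (0.26) were higher and Prim1 (-0.09) did not pass.

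Polymerase epsilon copies the leading strand, and its catalytic subunit Pole fell more than any other member. Pole had 192.0, 190.6 and 184.8 CPM in Tespa1+/+ and 97.4, 96.9 and 96.9 CPM in Tespa1-/- libraries. The Tespa1-/- level was 0.513 times that of Tespa1+/+ (log2 difference -0.96 ± 0.03, SE; edgeR, adjusted p 1.3e-06), and the libraries of each group were close to each other. Pole (ENSMUSG00000007080, chromosome 5, 110286306 to 110337474, plus strand) has 11160 bases of exon, the most among the members, and its length-corrected value of -0.46 also passed. Of the members that passed, Pole alone kept its call in all 18 alternatives tried, which include a test against a fold of 1.5. That test was the only alternative in which Gmnn, Cdc45, Pola1, Rrm2 and Dut, among others, lost their calls. The second subunit, Pole2, went the other way, from 28.1 ± 0.716 to 34.9 ± 4.07 CPM (SD, n = 3 each), a log2 difference of 0.31 ± 0.09 (SE; edgeR, adjusted p 0.0175). Pole2 has 2881 bases of exon and did not pass with the length correction (0.12) or with that on the implied length (0.08). It also did not pass with total counts (0.21) or limma-trend (0.19 and 0.21). The ratio of Pole to Pole2 was 6.71, 6.74 and 6.78 in the Tespa1+/+ libraries, against 2.73, 3.18 and 2.51 in those of Tespa1-/- LSKs.

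Polymerase delta, which copies the lagging strand, showed the same split. Its catalytic subunit Pold1 had 265.4, 267.4 and 262.9 CPM in Tespa1+/+ and 215.1, 236.8 and 216.0 CPM in Tespa1-/- libraries (log2 difference -0.25 ± 0.04, SE; edgeR, adjusted p 0.00157), with no overlap. Its accessory subunit Pold2 rose from 92.9 ± 3.90 to 135.3 ± 10.8 CPM (SD, n = 3 each), a log2 difference of 0.54 ± 0.06 (SE; edgeR, adjusted p 2.8e-04). Both calls held with the length correction, at -0.19 for Pold1 and 0.20 for Pold2. The ratio of Pold1 to Pold2 was 2.86 ± 0.135 in Tespa1+/+ and 1.65 ± 0.111 in Tespa1-/- LSKs (SD, n = 3 each). The catalytic subunits of all 3 polymerases, Pola1, Pold1 and Pole, were thus lower in Tespa1-/- LSKs both with and without the length correction.

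**Figure D4:**
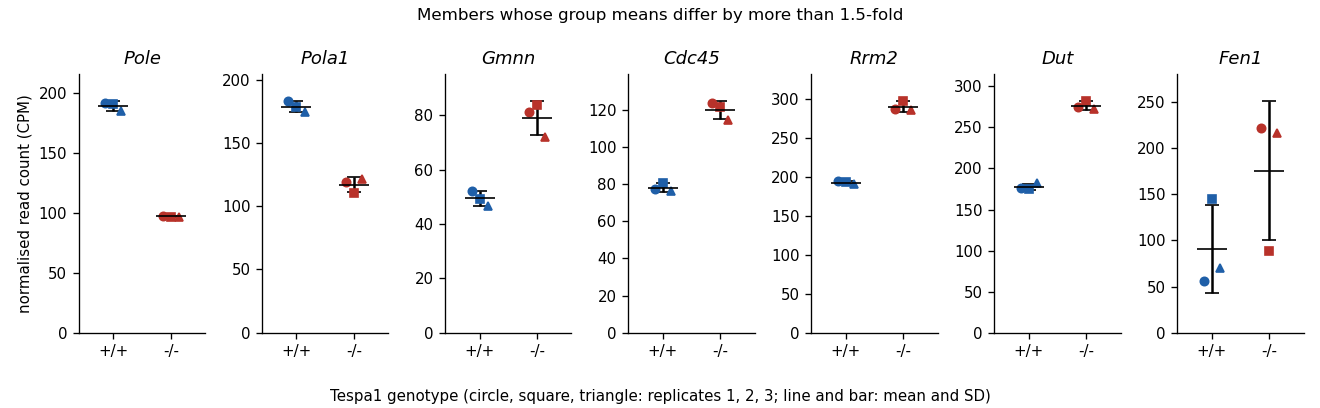
Normalised read count (CPM) of the 7 members whose group means differed by more than 1.5-fold, in each library (circle, square and triangle for replicates 1, 2 and 3), with the mean and SD of each group. Pole and Pola1 are lower and Gmnn, Cdc45, Rrm2 and Dut are higher in every Tespa1-/- library, whereas the Fen1 libraries of the groups overlap.

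PCNA, the clamp that holds polymerases on DNA, is loaded by replication factor C, a complex of the large subunit Rfc1 and the small subunits Rfc2 to Rfc5. Pcna rose from 299.7 ± 4.96 to 352.6 ± 4.61 CPM (SD, n = 3 each), a log2 difference of 0.23 ± 0.03 (SE; edgeR, adjusted p 2.2e-04). With the length correction it was at -0.03 and its sign flipped. The annotated pseudogene Pcna-ps2 held between 1520 and 3228 counts per library, so reads of Pcna may have been split between copies. Rfc1 fell from 166.4 ± 4.77 to 144.7 ± 3.13 CPM (SD, n = 3 each), a log2 difference of -0.20 ± 0.04 (SE; edgeR, adjusted p 0.00205). Rfc4 rose from 40.0 ± 0.507 to 57.2 ± 2.01 CPM (SD, n = 3 each), a log2 difference of 0.52 ± 0.05 (SE; edgeR, adjusted p 7.2e-05). Neither passed with the length correction, at -0.01 and 0.12, but Rfc4 kept its call with the correction on the implied length. The log2 fold changes of Rfc2, Rfc3 and Rfc5 were 0.24, 0.16 and 0.05 and did not pass. Rfc3 (0.07) and Rfc5 (0.10) did not pass with the length correction either, but both passed as higher with the correction on the implied length (0.17 each). Rfc3 passed without Tespa1+/+ replicate 3 (0.21) or Tespa1-/- replicate 3 (0.20). Rfc2 was uneven between libraries, with 154.0, 188.8 and 156.2 CPM in Tespa1+/+ and 171.8, 208.7 and 207.9 CPM in Tespa1-/-, and it passed without Tespa1+/+ replicate 2 (0.35), without Tespa1-/- replicate 1 (0.33) and with the length correction (0.45). Exons of Rfc2 share 15.1% of their length with Lat2 and those of Rfc4 12.7% with Eif4a2, both on the other strand.

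Single-stranded DNA at the fork is covered by replication protein A, a trimer of Rpa1, Rpa2 and Rpa3. Rpa1, the large DNA-binding subunit, was at 245.1 ± 5.70 and 234.3 ± 13.8 CPM (SD, n = 3 each) and did not pass. Rpa2 rose from 112.7 ± 5.58 to 148.8 ± 4.40 CPM (SD, n = 3 each), a log2 difference of 0.40 ± 0.05 (SE; edgeR, adjusted p 2.4e-04). Rpa3 had 23.5, 24.3 and 24.3 CPM in Tespa1+/+ and 36.4, 35.8 and 34.9 CPM in Tespa1-/- libraries (log2 difference 0.57 ± 0.05, SE; edgeR, adjusted p 7.2e-05). Rpa3 has the shortest exons of the members, with 1136 bases, and its length-corrected value of 0.11 did not pass, while that of Rpa2 (0.22) did. With the correction on the implied length, Rpa3 kept its call. Rpa1 was at 0.08 with the length correction and did not pass. The ratio of Rpa1 to Rpa3 was 10.2 ± 0.356 in Tespa1+/+ and 6.56 ± 0.254 in Tespa1-/- LSKs (SD, n = 3 each), a difference that their nearly equal length-corrected values do not show.

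Okazaki fragments are trimmed by the flap endonuclease Fen1 and sealed by DNA ligase I, the product of Lig1. Fen1 had 56.3, 145.1 and 70.4 CPM in Tespa1+/+ and 221.6, 88.9 and 215.9 CPM in Tespa1-/- libraries. The second library of each group stood apart from the other 2 in opposite directions, and the groups overlapped (log2 difference 0.94 ± 0.44, SE; edgeR, adjusted p 0.101). Without Tespa1+/+ replicate 2 the value was 1.48 (edgeR adjusted p 0.0206), and without Tespa1-/- replicate 2 it was 1.27 (edgeR adjusted p 0.0275), while over all alternatives the adjusted p ran from 0.0206 to 0.433. The coefficient of variation of Fen1 was 52.7% in Tespa1+/+ and 42.7% in Tespa1-/- LSKs, against medians over the members of 2.6% and 3.46%. Exons of Fen1 (ENSMUSG00000024742, chromosome 19, 10199132 to 10204169, minus strand) share 78.8% of their length with the antisense gene Gm10143, which had 72, 128 and 48 counts in the Tespa1+/+ libraries and 100, 93 and 73 counts in the others. Lig1 was at 257.9 ± 5.28 and 265.0 ± 8.60 CPM (SD, n = 3 each). With the length correction, Fen1 (0.69) and Lig1 (0.03) did not pass either.

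Of the 5 genes of nucleotide supply, 3 rose and 2 did not pass, and with the length correction 4 were higher. Ribonucleotide reductase, which makes deoxyribonucleotides, pairs the large subunit Rrm1 with the S-phase subunit Rrm2. Rrm2 had 194.4, 193.2 and 190.8 CPM in Tespa1+/+ and 288.0, 298.3 and 285.7 CPM in Tespa1-/- libraries, with no overlap (log2 difference 0.59 ± 0.03, SE; edgeR, adjusted p 4.6e-06). Dut, the dUTPase that keeps uracil out of DNA, had 176.5, 175.0 and 181.9 CPM in Tespa1+/+ and 274.5, 282.3 and 271.9 CPM in Tespa1-/- libraries (log2 difference 0.64 ± 0.03, SE; edgeR, adjusted p 4.2e-06). Rrm2 lies on chromosome 12, 24708241 to 24714146 (ENSMUSG00000020649), and Dut on chromosome 2, 125247190 to 125258608 (ENSMUSG00000027203), both on the plus strand. Tyms, the thymidylate synthase, rose from 61.6 ± 1.6 to 78.4 ± 4.68 CPM (SD, n = 3 each), a log2 difference of 0.35 ± 0.05 (SE; edgeR, adjusted p 9.9e-04). All 3 kept their calls with the length correction, at 0.38 for Rrm2, 0.37 for Dut and 0.54 for Tyms.

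Rrm1 had 426.1, 405.2 and 409.9 CPM in Tespa1+/+ and 412.6, 406.3 and 410.5 CPM in Tespa1-/- libraries, which overlapped (log2 difference -0.01 ± 0.03, SE; edgeR, adjusted p 0.694). With 11012 bases of exon it was the second longest member, and its length-corrected value of 0.48 passed as higher. The ratio of Rrm1 to Rrm2 was 2.15 ± 0.0474 in Tespa1+/+ and 1.41 ± 0.0417 in Tespa1-/- LSKs (SD, n = 3 each), but with the length correction Rrm1 rose more than Rrm2 and the direction of this pair turned. Tk1, the thymidine kinase of the salvage route, was at 94.3 ± 8.93 and 96.7 ± 5.13 CPM (SD, n = 3 each) and did not pass, also with the length correction (0.14). The summed level of the 5 genes was 921.5 to 953.8 CPM in Tespa1+/+ and 1144 to 1164 CPM in Tespa1-/- libraries. The chromatin assembly factor subunits Chaf1a and Chaf1b, which place histones behind the fork, did not pass, with log2 fold changes of 0.06 and -0.04. Chaf1a was at 0.44 with the length correction and passed, Chaf1b was at 0.00, and exons of Chaf1a share 52.5% of their length with Ubxn6 on the other strand.

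The members themselves followed the trend with exon length. Over the 47 genes, the Spearman correlation of the log2 fold change with exon length was -0.63, and 0.12 after the length correction. Of the 14 members with less than 3000 bases of exon, 12 were higher and none was lower, and their median log2 fold change was 0.51. Of all 6250 genes in that range, 48.1% were higher, 13.6% were lower and the median was 0.33. Of the 20 members with 3000 to 6000 bases, 4 were higher and 4 lower, with a median of 0.03. Of all 5166 genes of that range, 26.9% were higher and 31.8% lower, with a median of -0.04. Of the 13 members with more than 6000 bases, 2 were higher and 5 lower, and their median was -0.01. In that range, 11.1% of all 3904 genes were higher, 60.8% were lower and the median was -0.42. The length-corrected medians of the members in these ranges were 0.12, 0.05 and 0.29. These ranges were chosen after the values were seen and were not tested.

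**Figure D5:**
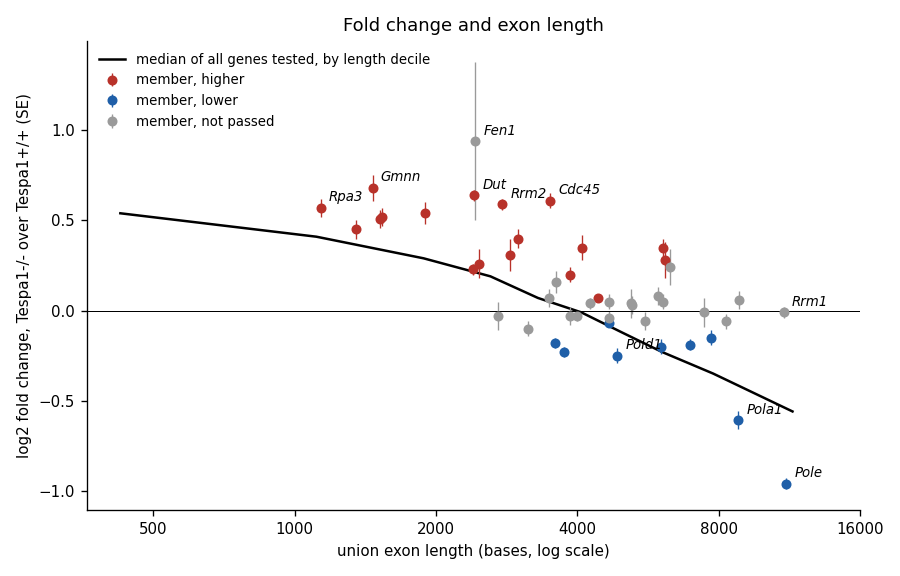
Log2 fold change with SE of the 47 members against union exon length (bases, log scale), coloured by the test, and the median log2 fold change of all genes tested in 10 length bins (black line), which fell from 0.54 in the shortest bin to -0.56 in the longest. Pole lies below the line at its length, whereas Rrm1, with nearly the same length, lies near 0.

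Other genes of the pathway, from lists that hold none of the members, were counted in the same way. Of 69 such genes, 25 rose, 24 fell and 20 did not pass, while 31.5% of all genes tested rose and 31.8% fell. With the length correction, 17 of the 69 were higher and 20 lower, while 24.9% of all genes were higher and 30.1% lower. The counts of the single lists that follow are to be read beside these shares. Among 27 other replication factors, 8 were higher and 9 lower, or 8 and 5 with the length correction. The largest rises were those of Rnaseh2c and Rnaseh2a, which encode subunits of the RNase H2 that removes ribonucleotides, and of Pole4, a small subunit of polymerase epsilon, with log2 fold changes of 0.78, 0.61 and 0.49. Top1, a topoisomerase that relaxes DNA, rose by as much as Pole4 (0.49) and was at 0.96 with the length correction. The largest falls were those of Ticrr, the treslin needed for origin firing (-0.75), Atad5, which unloads PCNA (-0.72), and Top2b, a type II topoisomerase (-0.64). Top2b was at -0.01 with the length correction and did not pass there, while Ticrr (-0.30) and Atad5 (-0.42) did. Pole3, the other small subunit of polymerase epsilon, rose by 0.32 and the delta subunit Pold4 by 0.34, the latter not passing without Tespa1+/+ replicate 1 (0.32) or 2 (0.34) or Tespa1-/- replicate 2 (0.24), but of these accessory subunits only Pole4 kept its call with the length correction (0.24). Pold3 was at 0.02 and did not pass.

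Among 15 other genes of nucleotide supply, 9 were higher and 3 were lower. The largest rises were in Nme1 (0.88) and Nme2 (0.66), nucleoside diphosphate kinases, and in Dctpp1 (0.47), a dCTP pyrophosphatase. With the length correction, 3 of the 15 were higher and 3 lower. Of the largest rises, only Nme1 passed with the length correction (0.74). Cad, the enzyme that starts pyrimidine synthesis, fell from 433.2 to 273.1 CPM (-0.67), Dck, the deoxycytidine kinase, fell by 0.40 and Samhd1, a dNTP hydrolase, by 0.30. Cad (-0.32) and Dck (-0.47) stayed lower with the length correction, whereas the sign of Samhd1 flipped to 0.10 and it did not pass. Among 11 genes of chromatin replication, 7 were higher and 3 lower, or 5 and 2 with the length correction. Asf1b (0.73) and Asf1a (0.28), histone chaperones, and Nasp (0.24), which carries linker and core histones, were the largest rises and kept their calls with the length correction. Hat1, a histone acetyltransferase gene, rose as much as Nasp (0.24) but was at 0.04 with the length correction and did not pass. The falls were those of Dnmt1 (-0.43) and Uhrf1 (-0.23), which maintain DNA methylation, and of Supt16 (-0.09), a histone chaperone. Supt16 did not pass without any 1 of the 6 libraries (-0.10 to -0.06) or with the length correction (-0.01).

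Of 16 genes of E2F and RB control, 9 were lower and 1 was higher, with a median log2 fold change of -0.31. Tfdp2, a partner of E2F factors, fell by 1.08 on the log2 scale (± 0.27, SE; edgeR, adjusted p 0.00933), E2f3 by 0.64 (± 0.06, SE; edgeR, adjusted p 8.3e-05) and the repressor E2f7 by 0.57 (± 0.07, SE; edgeR, adjusted p 3.3e-04). Of these, E2f3 alone passed with the length correction (-0.51). All 3 pocket protein genes fell, Rb1 by 0.37, Rbl1 by 0.48 and Rbl2 by 0.51, and they remained lower with the length correction. E2f1 was at 83.0 and 82.7 CPM and did not pass, but passed as lower with the length correction (-0.16). E2f4 was the gene called higher (0.15), but with the length correction it passed as lower (-0.10). With that correction, 10 of the 16 genes were lower and 1 was higher, Mybl2 (0.15), which had not passed without it.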

How the data were processed

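Poly-A RNA was made into stranded paired-end libraries and sequenced on a NovaSeq instrument, per the labels. The submitters' processing notes name CASAVA 1.8, HISAT2, StringTie, edgeR and the build GRCm38. Their roles, the counting tool and whether counting used strand were not given in the sources used here. The authors deposited 1 table of raw counts and FPKM values per gene and sample. FPKM was used to compare levels between genes and in alternatives.

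Groups were taken from the sample titles. Low counts were removed by filterByExpr, library sizes were adjusted by TMM, and the 3 samples of each group were compared by the quasi-likelihood test of edgeR 4.0.16 (R 4.3.3) without covariates. p-values were adjusted over 15332 genes (Benjamini-Hochberg, threshold 0.05). The SE comes from the log2 fold change divided by the root of F. For the length correction, deviations of log2 CPM from the mean of the libraries were fitted by loess (span 0.5) on union exon length (GENCODE M21) and used as offsets for 15320 genes. Libraries of a group differed beyond counting noise (chi-square per degree of freedom 7.29 to 9.46), so none was a duplicate. Counting error is small at these depths and covers sampling of reads only. The scripts were tested on simulated data.

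The members and the gene lists were chosen with earlier results of these data known. Named genes were all 47 members, Tespa1, up to 3 of the largest rises and falls past the threshold in each pathway list, and a few markers of the sort and of other lineages. Pole3, Pold3, Pold4, Top1, Hat1, Thy1, Cd34, Flt3, Cd48, Mpo, Ngp, Ltf, Camp, E2f1, E2f4, Mybl2, Rb1, Rbl1, Rbl2 and genes sharing exons with members were named after their values were seen. Counts by role have no test of their own. Alternatives were RLE factors, total counts, no filter, a minimum of 10 counts per sample, DESeq2 1.42.0, glmTreat, a replicate block, leave-one-out fits, limma-trend (limma 3.58.1) on log2(FPKM + 1) and log2(FPKM + 0.1) (FPKM 1 or more in 3 samples), and length corrections. Sequences were taken from RefSeq. Figures were drawn with matplotlib 3.10.9.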

Additional observations from a re-analysis of the deposited data

How the results depend on the processing

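Of 18 alternatives, RLE factors changed no call among the 47 members. The test against a fold of 1.5 (glmTreat) left no member higher and 1 lower (Pole), and 1020 genes higher and 1807 lower over all genes. No member was higher with a fold over 1.5 with total counts, limma-trend (either pseudocount), or any length correction, the one combined with the block included. The members lower at an adjusted p under 0.05 were 15 with total counts and with limma-trend at both pseudocounts. Those lower with a fold over 1.5 were 1 with the length that count and FPKM imply, 0 with the union exon length, with or without the block, and 1 to 2 when single libraries were left out. Over all genes, those higher with a fold over 1.5 were 1070 and 1365 with limma-trend at pseudocounts of 1 and 0.1, 1062 and 988 with the implied and union lengths, and 975 with the block and union length. Those lower were 1626 with limma-trend at a pseudocount of 1. The median of the members, 0.06, was -0.044 with total counts, -0.038 and -0.040 with limma-trend, 0.033 with at least 10 counts in every sample, 0.05 with DESeq2, 0.11 with each length correction, and 0.067 to 0.073 without single libraries.

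The replicate numbers were checked for pairing. Deviations of samples with the same number correlated at 0.05, 0.01 and 0.06, so the numbers were not taken as pairs. With the number as a block, Mcm7 lost its call, Rfc2 gained one, and 4675 genes were higher and 4697 lower. Among members that had passed, the sign of Mcm7 turned to -0.03 with total counts and limma-trend. Mcm2 turned to 0.08 with the union length, and passed as higher once the block was added (0.08; edgeR adjusted p 0.0482). Mcm10 turned to 0.10 with the implied length and to 0.17 with the union length, with or without the block. Pcna turned to -0.03 with the union length, with or without the block, and Orc6 to 0.00 with block and union length. Of the members that had not passed, Orc4 became 0.29 (0.28 with the block), Pola2 0.27 with the implied and 0.29 with the union length, and Rrm1 0.31 and 0.48, with the same union-length values of Pola2 and Rrm1 under the block. Other members that had not passed, such as Orc1, Orc3 and Cdc6, turned sign in some fits without passing there. Some calls depended on the length used. Orc2, Orc4, Mcm10 and Prim2 passed with the union length and not with the implied length. Cdc6, Mcm5, Mcm6, Rfc3, Rfc4, Rfc5 and Rpa3 passed with the implied length and not with the union length. The cause of these changes was not tested. Calls depending on single libraries were those of Orc5, Orc6, Mcm6, Mcm7, Cdt1, Rfc2, Rfc3 and Fen1.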
